A study of Homo sapiens with 19 samples.

Results

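The libraries described here are the 3 RNA libraries numbered replicate 3 of OCI-LY10, a human lymphoma cell line, set against the 6 libraries numbered replicates 1 and 2. They were chosen by the number in their titles, 1 from each of 3 hairpin groups, out of 19 samples in the series. OCI-LY10 is an established line from diffuse large B-cell lymphoma of the activated B-cell-like (ABC) kind. All 9 libraries come from cells with an inducible short hairpin RNA, kept in doxycycline at 20 ng/ml for 2 days. The hairpin is shEGR1#8, shEGR1#9 or, in the control group, shsc4, and each group has 3 libraries. The sources used here do not say what drives the hairpin or whether each line is 1 clone. The series asks which RNAs change when EGR1 is targeted. The comparison of replicate numbers is a check on how alike the repeats of each group are. No label says whether a replicate number marks a shared culture, a day or a sequencing run. Separate cultures within a group are not stated either, so a p-value here measures no more than the spread of these 9 libraries and may reflect technical variation alone.

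EGR1 is a zinc finger transcription factor of the immediate early class. Such genes are transcribed within minutes of a signal from the B-cell receptor, a growth factor or serum, through MAP kinases that act on serum response factor and its ternary complex partners. Their RNAs are short-lived. EGR2 and EGR3 are close relatives of EGR1, and NAB2 is a corepressor that EGR proteins induce and that restrains them.

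The sequence upstream of EGR1 is shown because EGR1 had the smallest p among the genes higher in replicate 3. It covers the 250 bases before the annotated start, chr5:138465229-138465478 on the plus strand of GRCh38.p14, from RefSeq. Capitals mark the 2 CArG boxes, the motif that serum response factor binds, searched on both strands.
EGR1: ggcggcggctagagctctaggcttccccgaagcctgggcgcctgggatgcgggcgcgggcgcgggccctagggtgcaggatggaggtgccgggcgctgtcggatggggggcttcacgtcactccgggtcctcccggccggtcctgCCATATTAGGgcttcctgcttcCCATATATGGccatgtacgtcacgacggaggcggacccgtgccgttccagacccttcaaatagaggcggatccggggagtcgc
The boxes lie 105 to 96 and 83 to 74 bases upstream of the start. Of 35116 RefSeq promoter windows of the same length, 1.16% hold at least 1 such box and 0.0313% hold at least 2. EGR2, NAB2, IER2, SRSF1, PDCD4, KHDRBS1 and TMEM11 have no match in the 1 window read for each, and any other starts of these genes were not searched. No window was read for DPYSL2 or EGR3.

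The unit of the deposited values was inferred from the numbers to be FPKM, in which fragments are divided by gene length and by library size. They were compared as log2(FPKM + 1), a scale on which the differences of weakly expressed genes come out too small. A gene was tested when at least 3 of the 9 libraries had at least 1 FPKM, which kept 10612 genes. The test was limma with hairpin group as a block, and a gene was called at a Benjamini-Hochberg adjusted p under 0.05. FPKM summed to 431993 to 445028 per library, and 10319 to 10499 genes reached 1 FPKM. The sources used here give no read totals. From the steps between low values, the FPKM worth of 1 read differed by 0.60, 0.01 and -0.17 log2 units from control replicate 1 in replicate 3 of shEGR1#8, shEGR1#9 and control. In replicates 1 and 2 it differed by -0.37 to 0.57, and a higher value means a shallower library.

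The targeted gene was not lower in the libraries labelled with EGR1 hairpins. EGR1 measured 20.5 FPKM in replicate 3 labelled shEGR1#8, against 10.04 and 11.4 FPKM in replicates 1 and 2. With the shEGR1#9 label it measured 22.7 FPKM in replicate 3, against 10.8 and 11.8 FPKM. In control it measured 12.3 FPKM in replicate 3, against 8.57 and 9.59 FPKM. The difference of labelled hairpins against control was 0.42 (log2, SE 0.27, limma adjusted p 0.349). The groups are therefore named by their labels throughout. In the same comparison 908 of 10612 genes (8.56%) were called, 620 higher and 288 lower.

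Replicate 3 differed from replicates 1 and 2 in 1 called gene of 10612 (0.00942%). That gene was DPYSL2, which was lower. At an unadjusted p under 0.05 there were 1072 genes (10.1%), of which 426 (4.01%) were higher and 646 (6.09%) lower in replicate 3. The median difference over all genes was -0.0023 (log2). No gene differed by 2-fold or more from the mean of both other libraries in every hairpin group, in either direction.

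DPYSL2, also called CRMP2, encodes a cytoplasmic protein that binds tubulin. It measured 7.29 FPKM in shEGR1#8 replicate 3, 7.81 FPKM in shEGR1#9 replicate 3 and 6.85 FPKM in control replicate 3. In replicates 1 and 2 it measured 12.4 and 12.2 FPKM with shEGR1#8, 12.3 and 11.7 FPKM with shEGR1#9 and 13.03 and 12.1 FPKM with control. The 3 replicate 3 libraries all lay below the other 6, with no overlap, and the 6 others lay close together. The difference was -0.68 (log2, SE 0.058, limma adjusted p 0.0278). The call was lost without a filter on low values (adjusted p 0.0974 in limma), and with any 1 library left out except control replicate 1 (adjusted p 0.0545 to 0.197 in limma). With the shEGR1 labels alone the limma adjusted p was 0.112. Its relative DPYSL3 was listed at 0 in all 9 libraries.

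**Figure D1:**
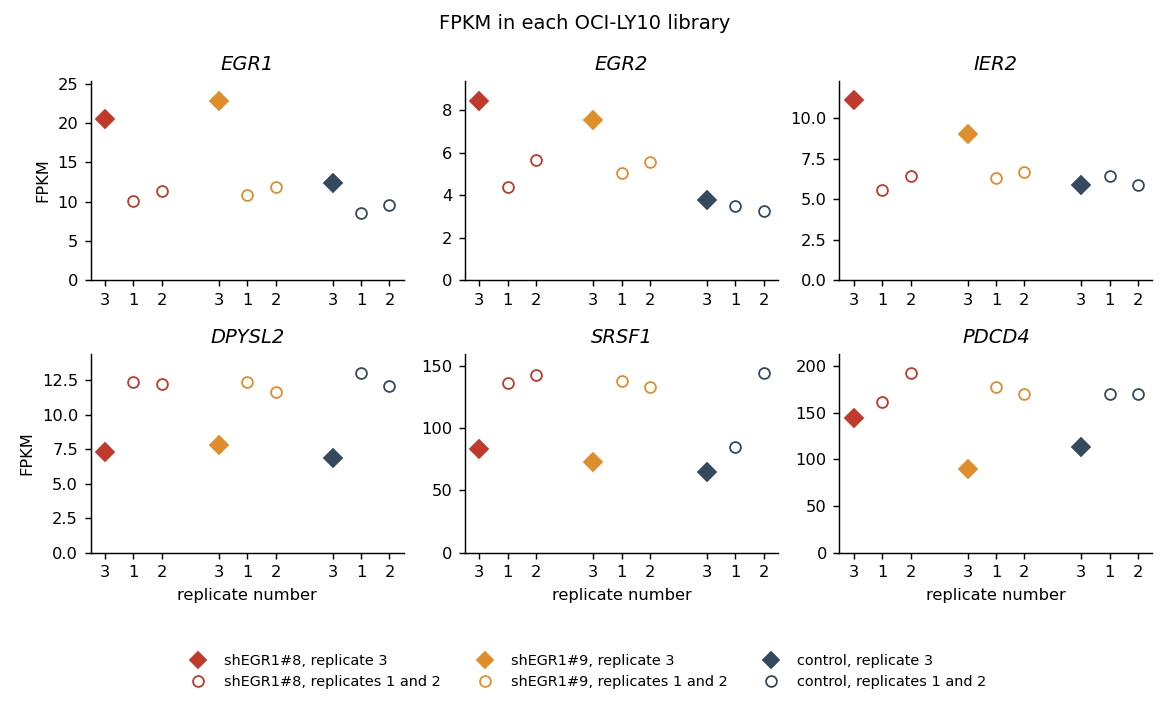
FPKM of 6 genes in each OCI-LY10 library, with replicate 3 as filled diamonds and replicates 1 and 2 as open circles, by hairpin group. EGR1 stands higher in replicate 3 of both shEGR1 labels (20.5 and 22.7 FPKM) than in the other 7 libraries, while DPYSL2 is at most 7.81 FPKM in the 3 replicate 3 libraries and at least 11.7 FPKM in the other 6.

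Among the genes higher in replicate 3, EGR1 had the smallest p but did not pass the threshold. Its 3 replicate 3 libraries, at 12.3 to 22.7 FPKM, lay above the 8.57 to 11.8 FPKM of the other 6. The groups did not overlap, and the replicate 3 libraries labelled shEGR1 stood well above the replicate 3 control library. The difference was 0.74 (log2, SE 0.10, unadjusted p 0.000108, limma adjusted p 0.382). By hairpin group it was 0.88 with shEGR1#8, 0.95 with shEGR1#9 and 0.40 with control. The excess with shEGR1 labels over control was 0.51 (log2, SE 0.14, limma adjusted p 0.178), which missed the threshold. EGR1 passed the threshold without control replicate 3 (0.91 log2, limma adjusted p 0.0309). The shEGR1 labels alone gave the same difference (limma adjusted p 0.0412), since control then has no replicate 3.

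EGR2 measured 8.42 and 7.54 FPKM in replicate 3 of shEGR1#8 and shEGR1#9, against 4.39, 5.65, 5.02 and 5.55 FPKM in their replicates 1 and 2. In control it measured 3.75 FPKM in replicate 3, against 3.48 and 3.25 FPKM in replicates 1 and 2. Replicate 3 was thus the highest library in each group, but control replicate 3 lay below all 4 shEGR1 libraries of replicates 1 and 2 (log2 difference 0.41, SE 0.11, limma adjusted p 0.482). EGR3 was at low levels, 2.48, 2.22 and 1.53 FPKM in replicate 3 of shEGR1#8, shEGR1#9 and control, against 1.28 to 1.96 FPKM in replicates 1 and 2. NAB2 measured 18.4 and 17.5 FPKM in replicate 3 with the shEGR1 labels, against 16.4, 13.7, 15.1 and 14.6 FPKM in their replicates 1 and 2. NAB2 in control was 9.54 FPKM in replicate 3, against 10.1 and 9.75 FPKM, so replicate 3 was the lowest control library and the highest with each shEGR1 label. The other corepressor, NAB1, was 5.75, 7.21 and 7.57 FPKM in replicate 3 of shEGR1#8, shEGR1#9 and control, with a difference of -0.16 (log2, limma adjusted p 0.512).

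Other immediate early genes were read beside these. IER2, a nuclear early response gene, measured 11.1 and 9.01 FPKM in replicate 3 of shEGR1#8 and shEGR1#9, against 5.57, 6.42, 6.31 and 6.70 FPKM in their replicates 1 and 2. Control libraries were alike, at 5.86 FPKM in replicate 3, against 6.42 and 5.86 FPKM. JUN, a subunit of the AP-1 factor, measured 3.56, 3.25 and 1.92 FPKM in replicate 3 of shEGR1#8, shEGR1#9 and control, against 2.12 to 2.99 FPKM in the other 6. FOS, its AP-1 partner, was at most 0.375 FPKM in any library and was not tested. JUND, singled out after its values were seen because its difference was the largest of its list (0.80 log2, limma adjusted p 0.544), measured 40.5, 40.2 and 21.1 FPKM in replicate 3. Its replicates 1 and 2 measured 3.58 and 25.7 FPKM with shEGR1#8, 31.02 and 30.2 FPKM with shEGR1#9 and 18.8 and 20.5 FPKM with control, so shEGR1#8 replicate 1 stood apart from the other 8 libraries. BTG1, an antiproliferative gene, measured 21.7, 21.4 and 20.7 FPKM in replicate 3, all below the 22.7 to 24.9 FPKM of the other 6 libraries (-0.14 log2, limma adjusted p 0.482).

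None of the 27 tested immediate early genes was called. At an unadjusted p under 0.05, 5 were higher (EGR1, EGR2, EGR3, IER2 and MYC) and 1 lower (BTG1), beside the 4.01% and 6.09% of all genes. Their median difference was 0.10 (log2), with 21 of 27 positive, beside -0.0023 and 5233 of 10612 positive over all genes. The median was 0.15 with shEGR1#8 and 0.18 with shEGR1#9, against -0.04 with control. In the test of unequal replicate 3 differences between shEGR1 labels and control, 10 of the 27 were higher and 1 lower with shEGR1 labels at an unadjusted p under 0.05, beside 11.9% and 5.56% of all genes, and none was called. In the same test 5 of 16 JAK-STAT targets, 4 of 13 histone genes, 10 of 42 MYC and nucleolar genes, 8 of 34 glycolysis and hypoxia genes, 7 of 31 cholesterol synthesis genes and 4 of 49 mitosis genes were higher, and nothing particular to the immediate early list was tested. The list was chosen with earlier results of these data known.

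**Figure D2:**
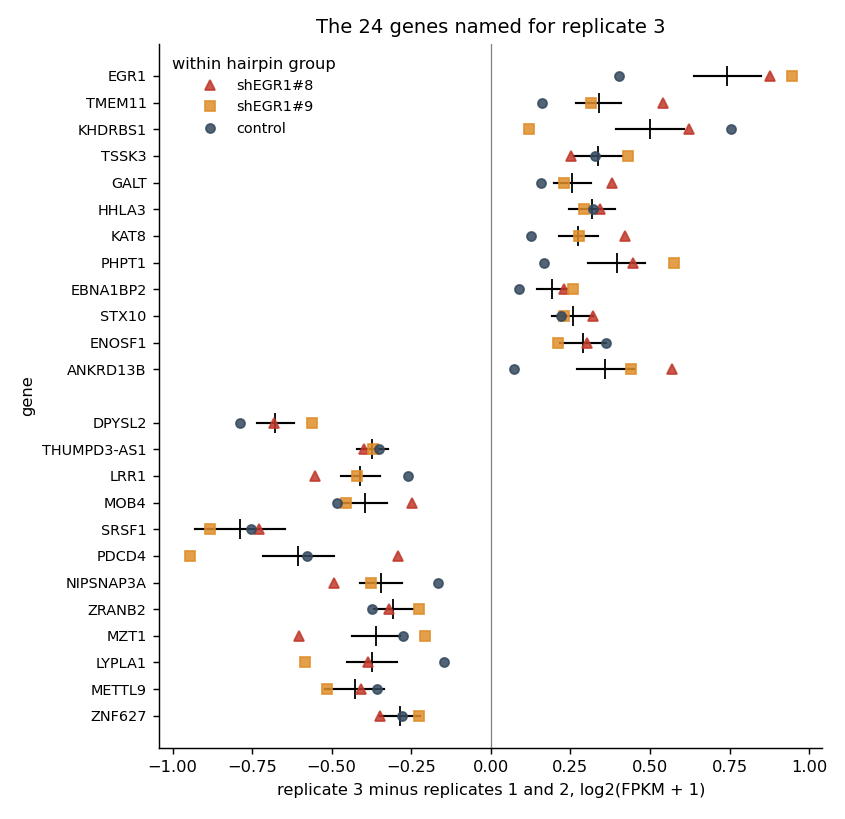
Difference of replicate 3 from replicates 1 and 2 on the log2(FPKM + 1) scale for 12 higher and 12 lower genes, as symbols for each hairpin group and as the fitted difference (vertical tick) with 1 SE (horizontal line). DPYSL2 alone was called; EGR1 lies at 0.88 and 0.95 with the shEGR1 labels and 0.40 with control.

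The rule for named genes gave 12 genes in each direction whose replicate 3 library lay on the same side of both others in every hairpin group. Such genes numbered 535 above (5.04%) and 631 below (5.95%). In 87 genes (0.82%) all 3 replicate 3 libraries lay above all 6 others, and in 167 genes (1.57%) they lay below. The rule chose these 24 genes by this same contrast, so their values are a description. The higher genes other than EGR1 all had a limma adjusted p of 0.482.

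Among them, KHDRBS1, the RNA-binding protein Sam68 that acts in splicing and signalling, measured 76.3, 56.01 and 84.4 FPKM in replicate 3 of shEGR1#8, shEGR1#9 and control. Replicates 1 and 2 lay between 47.4 and 52.4 FPKM, so the groups did not overlap, and control replicate 3 was the highest library (0.50 log2, SE 0.11). TMEM11, a protein of the mitochondrial inner membrane that shapes cristae, measured 23.2, 21.99 and 17.4 FPKM in replicate 3 of shEGR1#8, shEGR1#9 and control. Replicates 1 and 2 spanned 15.05 to 17.6 FPKM, a range that holds control replicate 3 (0.34 log2, SE 0.071). PHPT1, a protein histidine phosphatase, measured 38.6, 35.4 and 23.4 FPKM in replicate 3, against 20.2 to 29.3 FPKM in the others, with the groups overlapping. KAT8, the acetyltransferase of histone H4 lysine 16, measured 17.3, 15.7 and 13.8 FPKM in replicate 3, all above the 12.4 to 13.2 FPKM of the others.

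EBNA1BP2, a nucleolar factor of ribosome assembly, had the smallest difference of the 12, 0.19 (log2), at 189.8, 195 and 187 FPKM against 158 to 178 FPKM. GALT, the galactose-1-phosphate uridylyltransferase, differed by 0.26, STX10, a SNARE of the Golgi, by 0.26, and ANKRD13B, an ankyrin repeat protein, by 0.36 (log2). HHLA3 differed by 0.32. ENOSF1 differed by 0.29; it overlaps TYMS on the opposite strand, and the sources used here do not say whether counting used strand. TSSK3, a kinase gene named for its expression in testis, differed by 0.34, with 0.723 to 1.13 FPKM in replicates 1 and 2, at the limit of the filter.

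Of the 12 lower genes only DPYSL2 passed, and the other 11 had limma adjusted p-values of 0.336 to 0.482. SRSF1, a serine and arginine rich splicing factor, had the largest fitted difference of the 12. It measured 83.5, 72.8 and 65.1 FPKM in replicate 3 of shEGR1#8, shEGR1#9 and control. Replicates 1 and 2 measured 136 and 142 FPKM with shEGR1#8, 138 and 133 FPKM with shEGR1#9 and 84.8 and 144 FPKM with control. Control replicate 1 lay close to the replicate 3 libraries, and the other 5 libraries of replicates 1 and 2 lay far above (log2 difference -0.79, SE 0.14). SRSF1 passed without control replicate 1 (-0.89 log2, limma adjusted p 0.0313) and with the shEGR1 labels alone (-0.81 log2, limma adjusted p 0.0412). Among its relatives the difference was 0.051 for SRSF2, -0.10 for SRSF3 and -0.0021 for SRSF7 (log2), genes added after their values were seen.

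PDCD4, an inhibitor of translation that binds the helicase eIF4A, measured 144, 89.6 and 114 FPKM in replicate 3 of shEGR1#8, shEGR1#9 and control, against 161 to 192 FPKM in the other 6. The groups did not overlap, but shEGR1#8 replicate 3 lay nearest to the others (-0.60 log2, SE 0.11). THUMPD3-AS1, a long noncoding RNA antisense to THUMPD3, differed by an even amount, -0.40 with shEGR1#8, -0.37 with shEGR1#9 and -0.35 with control (log2). It measured 5.38, 6.13 and 5.88 FPKM in replicate 3, against 7.14 to 8.28 FPKM, and without strand its reads cannot be told apart from those of an overlapping partner. LRR1, a substrate receptor of a ubiquitin ligase that unloads the replisome, measured 18.2, 19.9 and 25.5 FPKM in replicate 3, against 26.2 to 31.03 FPKM, with no overlap.

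The remaining lower genes differed by -0.40 (MOB4, a subunit of the striatin phosphatase and kinase complex), -0.43 (METTL9, a histidine methyltransferase), -0.37 (LYPLA1, an acyl-protein thioesterase), -0.36 (MZT1, of the gamma-tubulin ring complex), -0.35 (NIPSNAP3A), -0.31 (ZRANB2, a splicing protein) and -0.28 (ZNF627, a zinc finger protein). MOB4 and METTL9 overlapped between replicate 3 and the others, and the other 5 did not. Among the higher genes EGR1, KHDRBS1, KAT8 and EBNA1BP2 did not overlap, nor did TSSK3, which passed the filter only through its replicate 3 libraries. Over all 10612 genes, replicate 3 lay wholly above the others in 0.82% and wholly below in 1.57%. The rule picked the named genes by this same contrast, so their lack of overlap is a description.

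CNBP, TRAPPC3, ETS1 and SEC14L1 missed the threshold with all 9 libraries (limma adjusted p 0.482 for each) and passed it with 1 library left out. They were singled out after their values were seen. Passing in this way was what picked them, so their adjusted p-values with 1 library left out are no support. CNBP, a zinc finger protein that binds nucleic acids, measured 86.3, 59.5 and 59.8 FPKM in replicate 3 of shEGR1#8, shEGR1#9 and control. In replicates 1 and 2 it measured 192, 189.8, 180.2 and 173 FPKM with the shEGR1 labels, but 58.3 FPKM in control replicate 1 and 206 FPKM in control replicate 2. Control replicate 1 was the lowest of all 9, and the call came without it (-1.46 log2, limma adjusted p 0.0313). TRAPPC3, of a complex that tethers vesicles, measured 8.29 and 7.50 FPKM in replicate 3 with the shEGR1 labels, against 15.4, 16.2, 15.2 and 14.3 FPKM in their replicates 1 and 2. Its control libraries were alike, at 14.3 FPKM in replicate 3, against 14.2 and 13.6 FPKM, and the call came without control replicate 3 (-0.87 log2, limma adjusted p 0.0101).

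ETS1, a transcription factor of lymphocytes, measured 23.4 FPKM in shEGR1#9 replicate 3 and 25.3 FPKM in control replicate 3, against 63.2, 61.1, 65.2 and 65.5 FPKM in their replicates 1 and 2. With shEGR1#8 it was 56.7 FPKM in replicate 3, against 58.97 and 64.3 FPKM. Without shEGR1#8 replicate 3 the difference was -1.36 (log2, limma adjusted p 0.000458). SEC14L1 had the same pattern, with 17.4 and 15.6 FPKM in replicate 3 of shEGR1#9 and control, 26.4 FPKM in replicate 3 of shEGR1#8 and 24.3 to 26.7 FPKM in the other 6 (-0.58 log2 without shEGR1#8 replicate 3, limma adjusted p 0.0447). The low libraries thus differed among these genes. They were replicate 3 of both shEGR1 labels for TRAPPC3, replicate 3 of shEGR1#9 and control for ETS1 and SEC14L1, and all 3 replicate 3 libraries with control replicate 1 for CNBP.

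**Figure D3:**
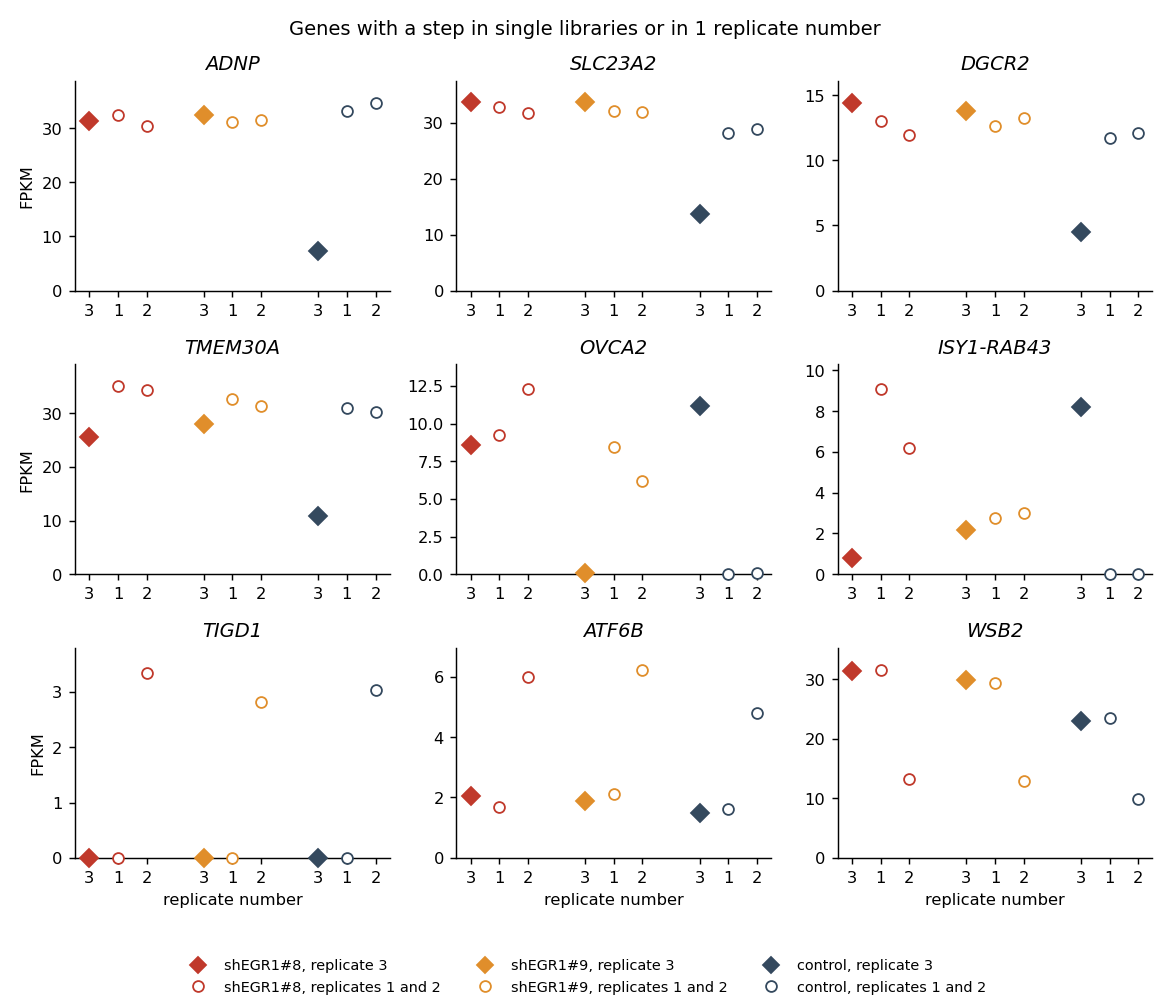
FPKM of 9 genes in each OCI-LY10 library, with replicate 3 as filled diamonds and replicates 1 and 2 as open circles. The upper rows show the 6 genes whose replicate 3 difference was unequal between shEGR1 labels and control, with control replicate 3 apart from control replicates 1 and 2 in each; the bottom row shows 3 genes in which replicate 2 stands apart in all 3 hairpin groups.

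The replicate 3 difference was unequal between the shEGR1 labels and control in 6 genes of 10612 (0.0565%), 4 of them higher and 2 lower with the shEGR1 labels. At an unadjusted p under 0.05 there were 1857 genes (17.5%). The spread in this test comes from replicates 1 and 2 alone, with 3 residual degrees of freedom. ADNP, a zinc finger protein of chromatin complexes, measured 31.2 and 32.4 FPKM in replicate 3 of the shEGR1 labels, within the 30.4 to 32.4 FPKM of their replicates 1 and 2. In control it measured 7.28 FPKM in replicate 3, against 33.05 and 34.5 FPKM (difference of differences 2.09 log2, SE 0.090, limma adjusted p 0.00523). DGCR2, SLC23A2 and TMEM30A likewise had 1 low library, control replicate 3. DGCR2, an adhesion receptor-like protein, measured 4.48 FPKM there, against 11.7 and 12.1 FPKM in control replicates 1 and 2. SLC23A2, a vitamin C transporter, measured 13.7 FPKM there, against 28.2 and 28.8 FPKM. TMEM30A, the subunit that lipid flippases need to leave the endoplasmic reticulum, measured 10.9 FPKM there, against 31.03 and 30.2 FPKM. TMEM30A was also the lowest library of its group in replicate 3 with shEGR1#8, at 25.5 FPKM, and with shEGR1#9, at 28.1 FPKM.

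The 2 genes lower with the shEGR1 labels share sequence with neighbours, and their values are uncertain. OVCA2 measured 8.55 and 0.111 FPKM in replicate 3 of shEGR1#8 and shEGR1#9, against 9.24, 12.3, 8.47 and 6.17 FPKM in their replicates 1 and 2. In control it measured 11.2 FPKM in replicate 3, against 0.0416 and 0.0964 FPKM. DPH1, with which it overlaps, was added after its values were seen. DPH1 measured 5.50 FPKM in control replicate 3, against 12.5 and 10.9 FPKM in control replicates 1 and 2. With shEGR1#8 DPH1 measured 9.70 FPKM in replicate 3, against 5.73 and 6.32 FPKM. With shEGR1#9 DPH1 measured 12.4 FPKM in replicate 3, against 8.07 and 11.3 FPKM. ISY1-RAB43, a readthrough of 2 neighbouring genes, measured 0.781 and 2.18 FPKM in replicate 3 of shEGR1#8 and shEGR1#9, against 9.09, 6.20, 2.76 and 2.98 FPKM. In control it measured 8.21 FPKM in replicate 3 and was listed at 0 in replicates 1 and 2. RAB43 measured 2.21 FPKM in control replicate 3, against 4.94 and 4.79 FPKM, so within control its readthrough was present where RAB43 was lower. With shEGR1#8 RAB43 measured 0.448 FPKM in replicate 3, against 0 and 0.157 FPKM. With shEGR1#9 it measured 0.0689 FPKM, against 0.235 and 0.236 FPKM, so there RAB43 and the readthrough were both lowest in replicate 3. ISY1 measured 12.8 FPKM in control replicate 3, against 13.6 and 20.5 FPKM. How the reads of such a locus were shared among its names was not tested. Without control replicate 1 only ADNP of the 6 remained called, and without control replicate 2 none did. Without replicate 1 or replicate 2 labelled shEGR1#9, DGCR2, SLC23A2 and TMEM30A lost their calls.

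Replicate 3 was not the only number with libraries that stood apart. Replicate 2 differed from replicate 1 in 3 called genes (0.0283%), replicate 3 from replicate 1 in 0 (0%, smallest limma adjusted p 0.166, 557 genes at an unadjusted p under 0.05) and replicate 3 from replicate 2 in 3 (0.0283%). These comparisons share libraries. The 3 genes were the same in both, and in each the replicate 2 libraries stood apart. TIGD1, derived from a transposase, measured 3.35, 2.81 and 3.03 FPKM in replicate 2 of shEGR1#8, shEGR1#9 and control, and was listed at 0 in the other 6 libraries. It passed the filter only through the replicate 2 libraries, so the filter fixed its direction. Its place in the counts given here is therefore no support. ATF6B, a transcription factor of the endoplasmic reticulum stress response, measured 5.99, 6.21 and 4.81 FPKM in replicate 2 and 1.48 to 2.13 FPKM elsewhere. WSB2, of the SOCS box family, measured 13.3, 12.9 and 9.89 FPKM in replicate 2 and 23.02 to 31.6 FPKM elsewhere. Genes 2-fold or more from the other libraries of their group in every hairpin group numbered 0 for replicate 3, 5 for replicate 2 and 2 for replicate 1. The 5 were ATF6B, POLD4, PTGES3L-AARSD1 (a readthrough) and TIGD1, higher, and WSB2, lower. The 2 were TUBA1A and the pseudogene FKBP1AP1, which have near-identical copies.

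Of 10612 genes, those on 1 side in every hairpin group were 1166 for replicate 3 (5.04% above and 5.95% below). They were 939 for replicate 2 (4.49% above and 4.35% below) and 637 for replicate 1 (2.21% above and 3.79% below). By library, the root mean square difference from the other 2 of its group was 0.327 log2 units for shEGR1#8 replicate 3, against 0.280 and 0.270 for shEGR1#8 replicates 1 and 2. For shEGR1#9 it was 0.227 for replicate 3, against 0.207 and 0.217 for replicates 1 and 2. For control it was 0.223 for replicate 3, against 0.196 and 0.222. By this measure replicate 3 was the most distant library in each group, by a small margin over replicate 2 in control; the next 2 measures did not give this order in every group. Genes 2-fold or more from the others numbered 113 in shEGR1#8 replicate 3, against 112 and 105 in replicates 1 and 2. They numbered 72 in shEGR1#9 replicate 3, against 68 and 80, and 78 in control replicate 3, against 60 and 85, so replicate 2 had more in both of these groups. The interquartile range of the differences was 0.404 in shEGR1#8 replicate 3, 0.185 in shEGR1#9 replicate 3 and 0.142 in control replicate 3, against 0.281 and 0.231 in shEGR1#8 replicates 1 and 2 and 0.163 and 0.126 in shEGR1#9 replicates 1 and 2. In control replicates 1 and 2 it was 0.139 and 0.147, so replicate 2 had the widest range there. shEGR1#8 replicate 3 was also the shallowest library by the worth of 1 read (0.60 log2 units from control replicate 1). shEGR1#8 replicate 1 was nearly as shallow (0.57), with the narrower interquartile range of 0.281. The part of depth in the spread of these libraries was not tested.

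**Figure D4:**
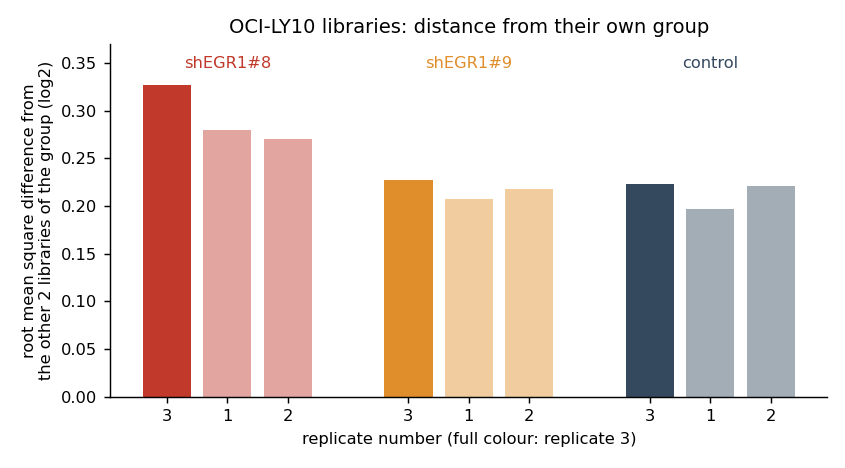
Root mean square difference (log2) of each library from the mean of the other 2 libraries of its hairpin group, over 10612 genes, with replicate 3 in full colour. Replicate 3 is the tallest bar in each group, and all 3 shEGR1#8 bars (0.270 to 0.327) are above all bars of shEGR1#9 and control (0.196 to 0.227).

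No list held a called gene. The counts that follow are at an unadjusted p under 0.05, to be read against the 4.01% of all genes higher and 6.09% lower. Genes of DNA replication gave 0 higher and 5 lower of 50 tested. DUT, which clears dUTP, measured 65.6, 75.6 and 99.3 FPKM in replicate 3 of shEGR1#8, shEGR1#9 and control, against 82.5 to 106 FPKM. PCNA, the sliding clamp, differed by -0.20 (log2, limma adjusted p 0.482). The list's median was -0.0020. Genes of mitosis gave 4 higher and 5 lower of 49, with an overall median of -0.080, 16 positive and 33 negative, and medians of -0.20 with shEGR1#8 and -0.0089 with shEGR1#9, against 0.02 with control. MAD2L1, of the spindle checkpoint, differed by -0.22 and BUB1, a checkpoint kinase, by -0.15, while FOXM1, a mitotic transcription factor, differed by 0.18 and MKI67, a proliferation marker, by 0.15 (log2, limma adjusted p 0.482 for each).

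The 33 NF-kB targets had a median of 0.07 with 25 positive, 3 higher and 1 lower, where 5233 of all 10612 genes were positive. Their hairpin medians were 0.16 with shEGR1#8 and 0.065 with shEGR1#9, against -0.0065 with control. NFKBIA, the NF-kB inhibitor that NF-kB induces, measured 112, 135 and 86.3 FPKM in replicate 3 of shEGR1#8, shEGR1#9 and control, each the highest of its group (0.13 log2). BIRC3, an apoptosis inhibitor of the same list, differed by -0.27. The 16 JAK-STAT targets had a median of 0.13, with 13 of 16 positive, 0 of 16 at an unadjusted p under 0.05 and hairpin medians of 0.31 with shEGR1#8 and 0.11 with shEGR1#9, against -0.01 with control. PIM2, a kinase that STAT factors induce, measured 528, 485 and 369 FPKM in replicate 3, against 347 to 489 FPKM. B-cell receptor and MYD88 signalling genes gave 1 higher and 0 lower of 37, SHC1 being the one (0.14 log2). Cytokines and chemokines gave 2 higher and 1 lower of 20, with TGFB1 at 22.5, 20.6 and 13.98 FPKM in replicate 3, against 13.1 to 16.01 FPKM. ERK feedback genes gave 0 higher and 1 lower of 8, SPRY2 (-0.22 log2).

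Interferon response genes gave 2 higher and 1 lower of 49, with a median of -0.02. IFITM2, a membrane protein that restricts viruses, differed by 0.32 and IFIH1, a sensor of double-stranded RNA, by -0.17 (log2). IFI6, an interferon-induced mitochondrial protein, was variable between replicates, at 88.8, 85.9 and 21.7 FPKM in replicate 3 of shEGR1#8, shEGR1#9 and control. Its replicates 1 and 2 were 83.5 and 50.3 FPKM with shEGR1#8, 74.1 and 59.5 FPKM with shEGR1#9 and 20.4 and 20.9 FPKM with control, so replicate 2 was the lowest with each shEGR1 label. MYC and nucleolar genes gave 4 higher and 2 lower of 42. MYC measured 104 and 99.9 FPKM in replicate 3 with the shEGR1 labels, against 82.9 to 88.6 FPKM in their replicates 1 and 2, and 90.03 FPKM in control replicate 3, against 88.2 to 91.4 FPKM.

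Cholesterol synthesis genes gave 0 higher and 5 lower of 31, with a median of -0.02. IDI1, an isomerase of the pathway, differed by -0.24, INSIG1, which retains the sterol sensor, by -0.18 and MSMO1, a sterol oxidase, by -0.22 (log2, limma adjusted p 0.482 for each). p53 targets gave 0 higher and 4 lower of 17, among them RRM2B, a ribonucleotide reductase subunit (-0.28), and PMAIP1, the proapoptotic NOXA (-0.20). CDKN1A, the p53 target and cell cycle inhibitor, differed by 0.056 (log2). The unfolded protein response gave 0 higher and 1 lower of 26 (DNAJB9, a cochaperone, -0.25), heat shock genes 1 higher and 2 lower of 26 and amino acid response genes 0 higher and 1 lower of 35 (PSPH, of serine synthesis, -0.16). Glycolysis and hypoxia genes gave 1 higher and 3 lower of 34. Nuclear genes of oxidative phosphorylation gave 2 higher and 2 lower of 47, with COX6B1 at 540.2, 472 and 382 FPKM in replicate 3, against 303 to 465 FPKM. Oxidative stress genes gave 0 of 26 in either direction, and no mitochondrially encoded RNA is listed.

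Ribosomal protein genes gave 6 higher and 4 lower of 77, with a median of 0.0019. RPL27 was the highest in replicate 3 of each group, at 2051, 1861 and 1771 FPKM against 1489 to 1722 FPKM, while RPS3A was 766, 918 and 1163 FPKM against 1051 to 1221 FPKM. Both belong to families with many processed copies. Replication-dependent histone genes gave 2 higher and 1 lower of 13, with HIST1H2BJ at 7.82, 4.95 and 3.89 FPKM in replicate 3 of shEGR1#8, shEGR1#9 and control, against 2.50 to 4.24 FPKM. Nuclear and host-gene RNAs gave 0 of 20 in either direction, and MALAT1, a nuclear noncoding RNA, differed by -0.034 with an SE of 0.25 (log2). GAPDH and ACTB, genes of general use, differed by 0.10 and 0.17 (log2).

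**Figure D5:**
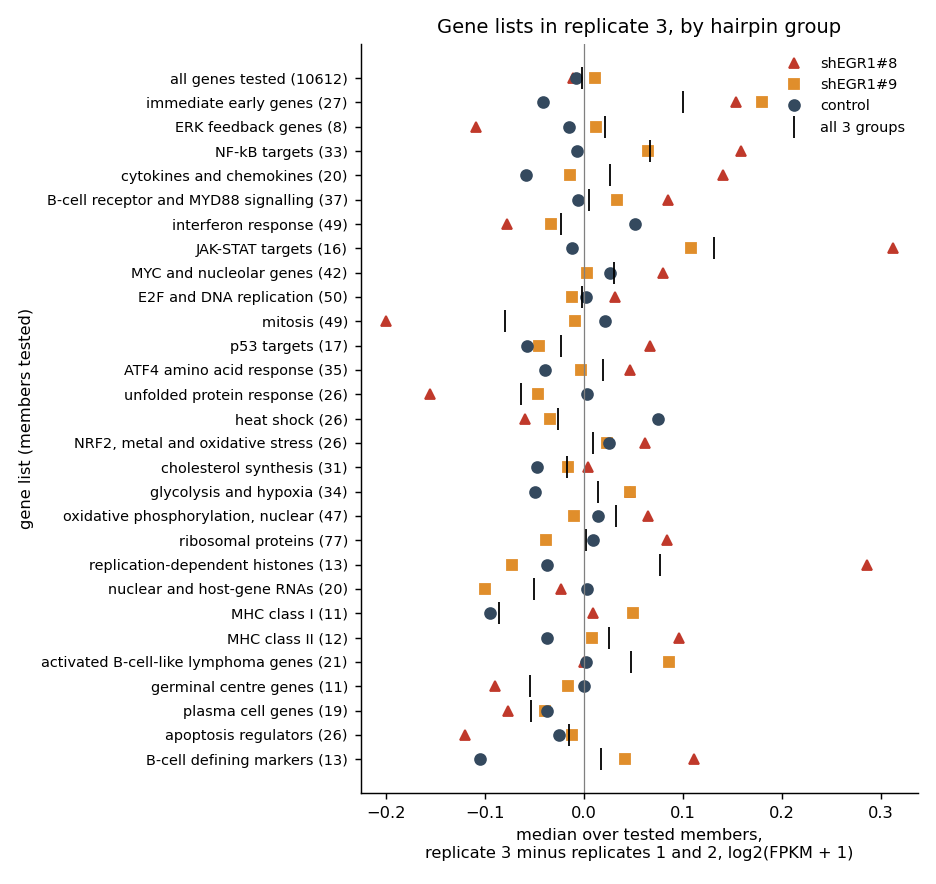
Median difference of replicate 3 from replicates 1 and 2 over the tested members of each list with 8 or more members tested, by hairpin group (symbols) and over all 3 groups (tick), on the log2(FPKM + 1) scale. The immediate early list has 0.15 and 0.18 with the shEGR1 labels and -0.04 with control.

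Lists of B-cell state and of other cells checked the tissue label. B-cell defining markers gave 0 higher and 1 lower of 13 (VPREB3, -0.27 log2). They summed to 3360 to 4764 FPKM in replicate 3, against 3415 to 4372 FPKM in replicates 1 and 2. CD79A, a chain of the B-cell receptor, measured 1092, 1020.4 and 557 FPKM in replicate 3 of shEGR1#8, shEGR1#9 and control, against 550.4 to 910.4 FPKM. MS4A1, which encodes CD20, measured 226, 279 and 324 FPKM in replicate 3, against 267 to 334 FPKM. TCL1A, the remaining marker of the list, was listed at 0 in all 9 libraries. Activated B-cell-like lymphoma genes gave 1 higher and 1 lower of 21, germinal centre genes 0 of 11, plasma cell genes 0 higher and 1 lower of 19, apoptosis regulators 0 higher and 2 lower of 26, MHC class I 1 higher and 1 lower of 11 and MHC class II 0 higher and 1 lower of 12. T and NK cell markers summed to 40.7 to 61.9 FPKM in replicate 3, against 35.9 to 54.5 FPKM, with 13 of 22 at 0 in every library. Their sum came mostly from CD247, GZMB and PRF1, and 1 of the 4 tested was higher at an unadjusted p under 0.05 (CD247, 0.22 log2). Myeloid markers summed to 0.845 to 1.99 FPKM, against 0.742 to 2.13 FPKM, with 12 of 16 at 0. Fibroblast and epithelial markers summed to 6.93 to 7.74 FPKM, against 6.69 to 9.43 FPKM, with 8 of 16 at 0. Erythroid and endothelial markers summed to 4.17 to 5.01 FPKM, against 5.08 to 5.90 FPKM, with 8 of 12 at 0, and PECAM1 gave nearly all of it (-0.22 log2). The part of these markers in the results was not tested, and in bulk RNA fewer cells of a type and less RNA per cell cannot be told apart.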

How the data were processed

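RNA of 9 OCI-LY10 libraries was compared, 3 with replicate number 3 and 6 with numbers 1 and 2. Per the labels' protocols, a TruSeq RNA kit made the cDNA libraries. The authors deposited 1 value per gene and library, read here as FPKM because values are not whole, sum to no fixed total and, in a minority of low genes, stand in small whole ratios between libraries. Neither header nor label names the unit. The submitters' processing notes name Bowtie2, HISAT, StringTie and build hg19. Versions, roles and any scaling between libraries: not given in the sources used here.

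Of 25369 lines, 4 with a repeated date-like name were left out, and 10612 genes with at least 1 FPKM in 3 libraries were kept. Values as log2(FPKM + 1) were fitted in limma 3.58.1 (R 4.3.3) with a mean-variance trend and hairpin group as a block, leaving 5 residual degrees of freedom, and two-sided p-values were adjusted by Benjamini-Hochberg over all genes tested. Further fits gave 1 mean per hairpin group and replicate class, replicate number as 3 levels, and shEGR1 labels against control. Scripts were tested on simulated data. Python 3.11.15, numpy 2.4.6, pandas 2.3.3 and matplotlib 3.10.9 did the rest. Relative depth used genes under 0.08 FPKM, of which 24.7 to 33.1% had values in whole-number ratios (to 4, tolerance 0.01 log2) with control replicate 1 after scaling. It gives no counting interval.

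Named genes were the 12 per direction with called or smallest p whose replicate 3 library lay on 1 side of both others in every group, up to 4 per list with the smallest p, and EGR1, EGR2, EGR3, NAB2, FOS, JUN, MYC, MKI67, CDKN1A, IFI6, MALAT1, GAPDH and ACTB. Members and the 33 lists were chosen with earlier results of these data known. Alternatives were another pseudocount (0.1), no filter, quantile and median-ratio scaling, array weights, each library left out, no hairpin block and a replicate block. The subsets with shEGR1 labels only and replicates 1 and 2 only were chosen after seeing the data. The 4 chromatin immunoprecipitation samples and the TMD8 and SUDHL2 tables were not analysed here.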

Additional observations from a re-analysis of the deposited data

Results flagged for a closer look

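In 6 genes the replicate 3 difference was tested to differ between the shEGR1 labels and control (limma, adjusted p under 0.05, 3 residual degrees of freedom). The values are the replicate 3 difference averaged over both shEGR1 labels minus that in control, on the log2(FPKM + 1) scale. They were 2.09 for ADNP (limma adjusted p 0.00523), 1.37 for DGCR2 (limma adjusted p 0.0222), 1.07 for SLC23A2 (limma adjusted p 0.0222) and 1.10 for TMEM30A (limma adjusted p 0.0222), in each of which control replicate 3 was the lowest of the 9 libraries. They were -5.10 for OVCA2 (limma adjusted p 0.00706) and -4.47 for ISY1-RAB43 (limma adjusted p 0.00706), which were near or at 0 in control replicates 1 and 2. Each value rests on 1 control replicate 3 library, which has no repeat within the series.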

How the results depend on the processing

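The 1 call of replicate 3 against replicates 1 and 2 stayed 1 under another pseudocount, both scalings and no hairpin block. It became 0 with no filter, 4 with shEGR1 labels only and 0 to 3 with 1 library left out (0 without control replicate 2, shEGR1#8 replicate 1 or 2 or any shEGR1#9 library, 2 without control replicate 3 or shEGR1#8 replicate 3, 3 without control replicate 1). Array weights, whose estimation did not converge for the comparisons of replicate numbers, gave 1526, with 1932 for replicate 3 against 1 and 342 for 3 against 2. The 6 calls of unequal replicate 3 differences became 66 with no filter and 1 to 23 with 1 library left out; leaving out a replicate 3 library could not be fitted. With 1 library left out, counts were 2 to 5 for replicate 2 against 1, 0 to 2 for 3 against 1 and 2 to 6 for 3 against 2. The 908 calls of shEGR1 labels against control became 1914 with array weights, 353 with replicates 1 and 2 only and 285 to 1312 with 1 library left out (314, 315 and 285 without control replicates 1, 2 and 3, 534 and 539 without shEGR1#9 replicates 2 and 3). Their split of 620 higher and 288 lower became 444 and 367 with quantile normalization and 526 and 379 with median-ratio scaling. The causes were not tested.

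With the replicate block that comparison gave 775 calls (3 levels) or 1070 (replicate 3 against 1 and 2). The numbers are not shown to pair the samples: deviations of same-numbered libraries from their group means correlated at -0.19 to 0.26, and 2 of 9 libraries matched best with their own number in both other groups. Those 2 were replicate 2 of control and of shEGR1#9. Both ends of the range came from replicate 3. Its libraries correlated at 0.26 between shEGR1#8 and shEGR1#9, but at -0.19 and -0.069 between control and shEGR1#8 or shEGR1#9.

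Of 2412 single-gene values over 153 genes, 2275 kept their direction and side of the threshold, 30 lost it, 91 gained it and 16 changed sign. Outside the array weights, whose estimation did not converge for replicate 3 against replicates 1 and 2, only EGR1 and SRSF1 gained a call. Those 16 belong to uncalled genes. With array weights the log2 difference was -0.021 for DUSP1, 0.033 for VLDLR, 0.0072 for PTPN22 and 0.035 for MS4A1. With 1 library left out it spanned -0.18 to 0.014 for PTPN22, -0.046 to 0.11 for PRF1, -0.19 to 0.033 for MS4A1, -0.023 to 0.16 for CDKN1A and -0.17 to 0.094 for MALAT1. Depth in reads is unknown, so no floor can be given for low genes.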
